A study of Mus musculus with 3 samples.

Results

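The genes described here build and remodel the actin cytoskeleton: actins, the proteins that bind, sever, nucleate, cap and cross-link actin, conventional myosins and tropomyosins. They were taken by name from the listed genes. A gene entered when its symbol began with Arpc, Actr, Actn, Capz, Cfl, Coro, Myh, Myl, Tmsb, Pfn, Fln, Tln, Tpm, Twf or Diaph, or was Actb, Actg1, Cap1, Vcl, Lcp1, Was, Wipf1, Dstn, Gsn, Ezr or Msn, and the ligase gene Mylip was left out. This gave 65 of 11419 genes. The rule reads names only, but it was set with earlier results of these data known. The filter behind the listed genes is not given either. The prefixes also took 7 genes that work elsewhere, namely Actr1a, Actr1b and Actr10 of the microtubule motor adaptor dynactin, Actr5, Actr6 and Actr8 of nuclear chromatin remodelling complexes, and Cflar, a regulator of cell death. The other 58 are genes of the actin cytoskeleton.

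The RNA came from 1 population that was sorted from marrow of the hind limbs of inbred C57BL/6 mice by surface CD11b, F4/80 and CD169 and the absence of CX3CR1. It was sequenced as 3 libraries, numbered as replicates in the labels, and there was no other population and no treatment. The libraries held 5150020, 40149274 and 37604930 reads assigned to listed genes in replicates 1, 2 and 3. Levels are CPM, reads per 1000000 assigned to listed genes, and comparisons between genes use CPM per kb, with length taken over the exons of protein-coding transcripts.

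Actin monomers join into polar filaments that grow at the barbed end and are taken apart near the pointed end. The Arp2/3 complex starts branches on existing filaments when WASP or WAVE proteins switch it on, formins start unbranched filaments, capping protein stops growth, and cofilin severs old filaments so that monomers can be used again. Migrating and phagocytic leukocytes depend on this cycle, and myosin II pulls on the filaments to contract the cell body. In bulk RNA of this kind, fewer cells that hold a transcript and less RNA per cell cannot be told apart.

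The population is called here by its gate, since the marker genes went against a macrophage label. All 14 genes of a neutrophil list were above 10 CPM and together held 229259, 229371 and 193548 CPM in replicates 1, 2 and 3. The 14 core macrophage genes summed to 264, 245 and 269.5 CPM, with 5 above 10 CPM and 7 below. Those above were led by Vcam1, Csf1r, Cd68 and Adgre1, which encodes F4/80 of the gate. Adgre1 had 18.6, 26.5 and 21.4 CPM (above 10 CPM, adjusted p = 9.85e-06 in limma). Siglec1, which encodes CD169 of the gate, had 0.388, 3.66 and 4.57 CPM. Of 12 striated muscle genes only Tnnt3 and Tnni2 were listed, both below 10 CPM, and of 10 smooth muscle and pericyte genes 3 were listed, with Smtn at 62.5, 84.5 and 77.3 CPM, Acta2 at 33.6, 31.5 and 39.8 CPM and Pdgfrb at 0.777, 0.299 and 1.44 CPM. The erythroid list summed to 1004, 589 and 569.7 CPM and the eosinophil and basophil list to 1416, 956 and 1378 CPM. Genes of the latter list differed in opposite directions between libraries. Prss34 had 596, 74.5 and 81.2 CPM and Mcpt8 had 259, 35.4 and 37.4 CPM in replicates 1, 2 and 3. Prg2 had 316, 494 and 722 CPM and Epx had 66.4, 122 and 275 CPM. The monocyte list summed to 1196, 1061 and 961 CPM, nearly all of it Ly6c2 at 1141, 1017 and 932 CPM. The B lymphoid list summed to at most 249.9 CPM in a library, the megakaryocyte and platelet list to 149 CPM, the T and NK list to 114 CPM, and the stromal and endothelial list to 18.3 CPM. How much these other cell types contribute to the levels below was not tested.

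Most of the 65 genes were well expressed. Each gene was set against a fixed level of 10 CPM with limma across all 11123 genes that had at least 10 reads in total, and all 65 passed that filter. Of the 65, 55 were above 10 CPM at an adjusted p under 0.05, 7 were below, and Actr6, Tpm1 and Cfl2 were called neither way. Among all genes tested 58.8% were above and 28.3% were below. The 7 genes below were Myl2, Myl6b, Tpm3-rs7, Mylpf, Mylk, Myh10 and Coro2b. Without the 7 genes that work elsewhere, 49 of 58 were above and 7 below. The median of the 65 genes was 282 CPM, against 19.7 CPM over all listed genes, and 16 of the 100 genes of highest mean in the libraries were among them.

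Together the 65 genes took 6.12, 6.26 and 6.63% of assigned reads in replicates 1, 2 and 3 (6.34 ± 0.263%, SD, n = 3). As a share of CPM per kb the figure was 4.62%. Actb alone gave 29.7 ± 0.700% of the reads of the 65 genes, the 5 highest genes gave 52.9 ± 1.19%, and the 20 highest gave 87.1 ± 0.168%. Thus the read share was carried by few genes, although 42 of the 65 exceeded 100 CPM. Members lay on 19 chromosomes, with Flna, Tmsb4x, Msn, Was and Diaph2 on the X chromosome.

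**Figure D1:**
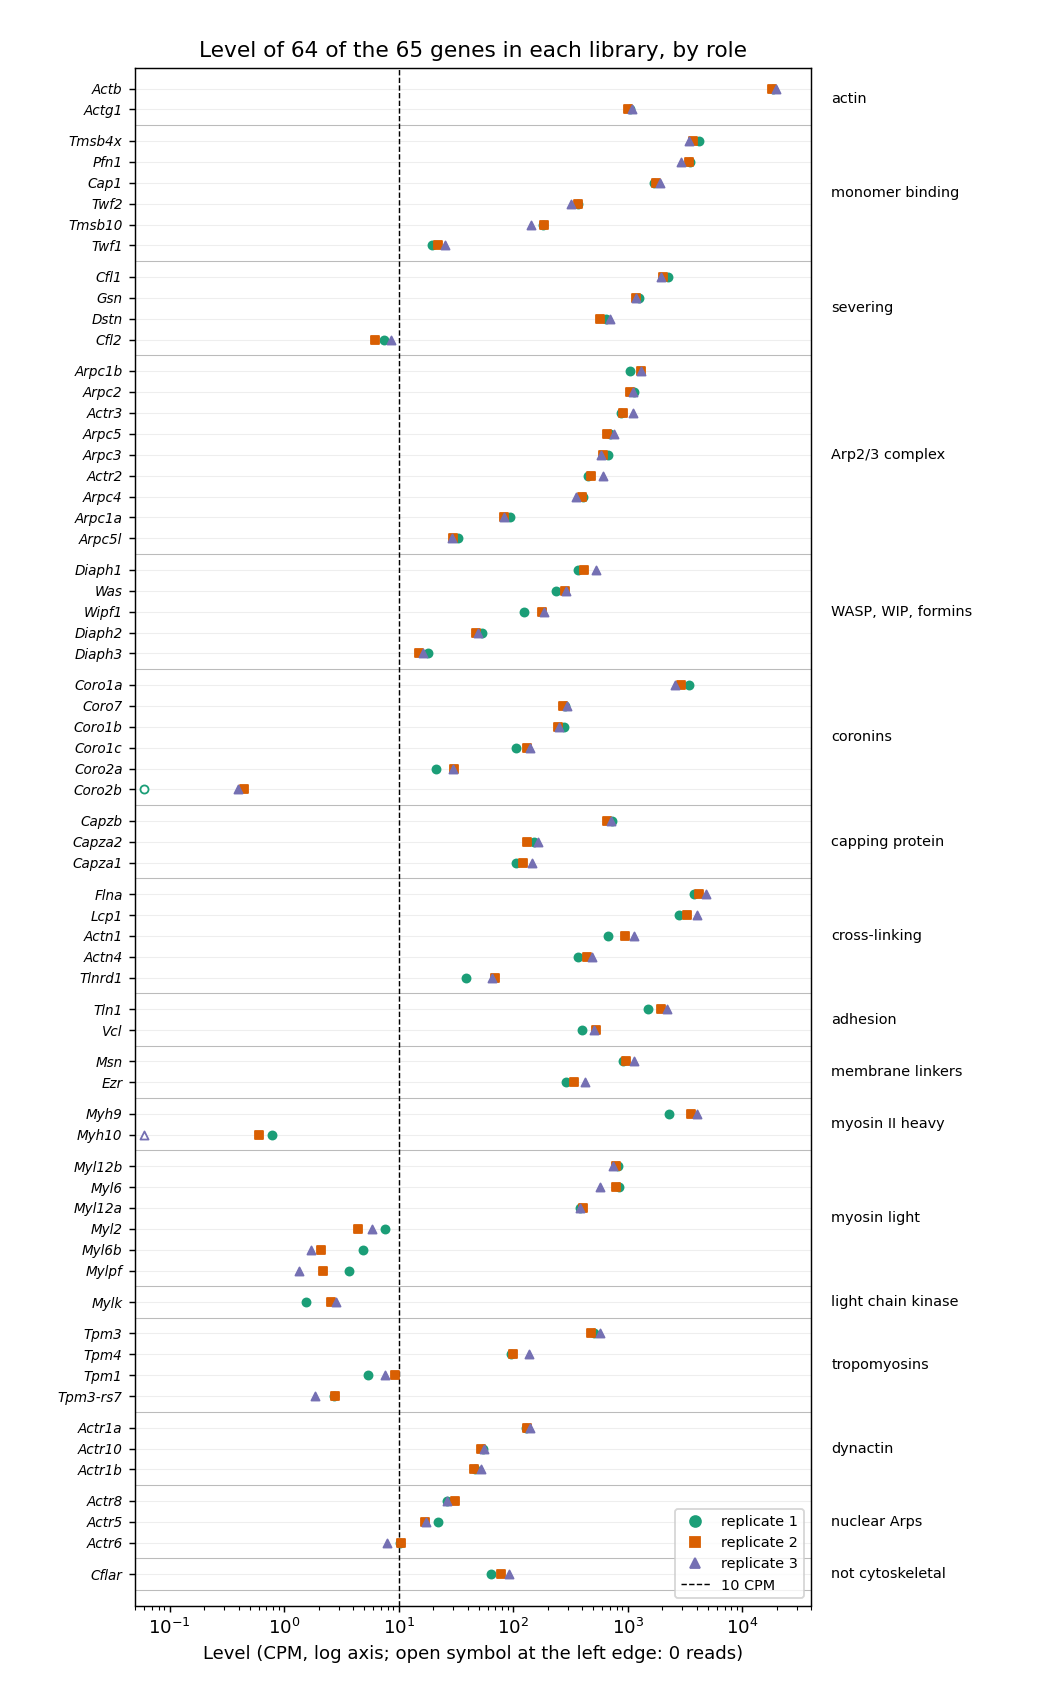
Level in CPM (log axis) of the 65 genes, all but 1, in replicates 1, 2 and 3, grouped by role, with the fixed level of 10 CPM as a dashed line and open symbols for 0 reads. The actin, Arp2/3, capping, cross-linking, adhesion and membrane linker groups lie wholly right of the line, and the genes left of it belong to the cofilin, coronin, myosin, tropomyosin and nuclear Arp groups and to Mylk.

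Both cytoplasmic actins were above the fixed level, and beta actin was far more abundant than gamma actin. Actb (beta actin, ENSMUSG00000029580, GRCm38 chromosome 5, 142903115 to 142906754, minus strand) had 18641, 18188 and 19719.8 CPM in replicates 1, 2 and 3, a log2 difference of 10.74 from 10 CPM (adjusted p = 1.13e-25 in limma, SE 0.11). It held the fifth highest CPM of all listed genes, and its levels in the 3 libraries differed by a factor of 1.08 at most. Actg1 (gamma actin, ENSMUSG00000062825, chromosome 11, 120345690 to 120348542, minus strand) had 1043, 1001 and 1087 CPM, a log2 difference of 6.57 from 10 CPM (adjusted p = 8.56e-24 in limma, SE 0.10). Per kb of exon, Actb exceeded Actg1 by 4.26 ± 0.01 on the log2 scale (SD, n = 3), or 19.2-fold, and this ratio varied less between libraries than that of any other pair compared here. The smooth muscle actin Acta2, which is not among the 65, is given above.

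The coding sequences of the 2 actin genes had equal length, 1128 bases, and differed at 128 positions (88.7% identity). Their first 60 coding bases are shown as an example of how the 2 genes differ within the coding part. The differing bases are in capitals and were found at 9 positions of this stretch.
Actb: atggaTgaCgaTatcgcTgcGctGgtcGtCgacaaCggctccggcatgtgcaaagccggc
Actg1: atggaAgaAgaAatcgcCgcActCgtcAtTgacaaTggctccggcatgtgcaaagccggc
Of all 50-base words in Actg1 transcripts, 45.6% occurred also in transcripts of other annotated genes, mostly those of Gm12715, which was not listed. For Actb the share was 12.2%. How reads with several matches were counted is not given in the sources used here, so the Actg1 level, and with it the ratio, is uncertain to that extent.

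Among monomer-binding proteins all 6 genes were above 10 CPM. Tmsb4x, which encodes thymosin beta 4, a small protein that holds actin monomers in reserve, had 4229, 3694 and 3427 CPM in replicates 1, 2 and 3, and its relative Tmsb10 had 183, 184 and 142 CPM. Pfn1 (profilin 1), which loads monomers with ATP and brings them to growing ends, had 3476, 3399 and 2945 CPM. Per kb, Pfn1 stood at 3190.2 ± 279.6 and Tmsb4x at 2759.7 ± 298 CPM per kb, next in order among the 65 after Actb at 8816 ± 368. Cap1, an adenylyl cyclase-associated protein that recycles monomers from cofilin, had 1691, 1749.8 and 1901 CPM. The twinfilins, which bind monomers and barbed ends, were unequal. Twf2 had 365, 365 and 317 CPM and Twf1 had 19.4, 21.99 and 25.6 CPM, a log2 ratio per kb of 4.64 ± 0.28 (24.9-fold), or 3.91 when not divided by length. Of the Twf1 exon bases, 12.9% are overlapped by Irak4 on the other strand, at 64.4 CPM, and 15.7% of its 50-base words occur in other genes. The Twf1 level and this ratio are uncertain to that extent. The profilin genes Pfn2, Pfn3 and Pfn4 were not listed.

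Tmsb4x exceeded Tmsb10 by 4.37 ± 0.14 on the log2 scale per kb (20.7-fold), in 3 of 3 libraries. Both coding sequences are short enough to print whole, at 135 bases with 40 differing positions in capitals (70.4% identity).
Tmsb4x: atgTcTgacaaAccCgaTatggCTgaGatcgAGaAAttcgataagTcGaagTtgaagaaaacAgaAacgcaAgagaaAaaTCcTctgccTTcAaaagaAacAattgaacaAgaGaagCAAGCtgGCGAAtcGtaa
Tmsb10: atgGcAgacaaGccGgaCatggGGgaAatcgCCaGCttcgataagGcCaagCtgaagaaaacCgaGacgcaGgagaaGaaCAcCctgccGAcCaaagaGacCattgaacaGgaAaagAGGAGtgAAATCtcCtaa
No 50-base word of the Tmsb4x or Pfn1 transcripts occurred in another annotated gene, against 27.0% of those of Tmsb10.

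Severing factors were also abundant, apart from the muscle form of cofilin. Cfl1 (cofilin 1) had 2229.9, 2028 and 1957 CPM, Gsn (gelsolin, which severs and then caps filaments when calcium rises) had 1255, 1171 and 1187 CPM, and Dstn (destrin, a cofilin relative) had 641, 572 and 705 CPM in replicates 1, 2 and 3. Cfl2, best known from muscle, had 7.38, 6.23 and 8.48 CPM, and its level was not told apart from 10 CPM, at a log2 difference of -0.40 from 10 CPM (adjusted p = 0.110 in limma, SE 0.23). Cfl1 exceeded Cfl2 by 7.89 ± 0.20 on the log2 scale per kb, and Dstn by 1.31 ± 0.20 (2.47-fold). The ordering Cfl1, Gsn, Dstn, Cfl2 per kb (828 ± 56.6, 407 ± 15.1, 335 ± 34.8 and 2.50 ± 0.384 CPM per kb, SD, n = 3) had no overlap between neighbours in the 3 libraries. On Cfl1, 16.5% of the exon bases are overlapped by Snx32 on the other strand, at 3.06 CPM. The sources used here do not say whether the counting used strand.

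All 9 listed genes of the Arp2/3 complex were above 10 CPM, with a median of 619.7 CPM. The complex holds 7 subunits in equal number, 2 of them actin-related proteins (Actr2 and Actr3) and 5 of them scaffold subunits (Arpc1 to Arpc5). Arpc2, a core scaffold subunit, had the highest level per kb in every library, at 540.2 ± 22.1 CPM per kb. Arpc3 followed at 459 ± 37.2, Arpc5 at 369 ± 25.6, Actr3 at 354 ± 47.2, Arpc1b at 339 ± 43.2, Arpc4 at 166 ± 12.6 and Actr2 at 141 ± 23.8 CPM per kb (SD, n = 3). Arpc5, Actr3 and Arpc1b overlapped in their values over the libraries, as did Arpc4 and Actr2. The highest of the 7 subunits exceeded the lowest by 4.56, 3.89 and 3.58 times in replicates 1, 2 and 3 (4.01 ± 0.499). The lowest was Actr2 in replicates 1 and 2 and Arpc4 in replicate 3. The factor was 5.63 with the longest transcript as the length and 3.27 on plain CPM, so the size of this range depends on the length used.

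In CPM, Arpc1b had 1039, 1306 and 1309 CPM, Arpc2 had 1139, 1050.0 and 1106 CPM, and Actr3 had 874, 908 and 1112 CPM in replicates 1, 2 and 3. Arpc5 had 699, 662 and 759 CPM, Arpc3 had 676, 602 and 581 CPM, Actr2 had 446, 482 and 611 CPM, and Arpc4 had 408, 396 and 352 CPM. Of the subunits with an alternative form, 1 form dominated in each case. Arpc1b, the form on which blood cells depend in humans, exceeded Arpc1a (93.8, 82.5 and 83.6 CPM) by 2.77 ± 0.29 on the log2 scale per kb (6.84-fold), and by 3.79 when CPM was not divided by length. Arpc5 exceeded Arpc5l (33.01, 29.9 and 29.2 CPM) by 3.95 ± 0.15 (15.5-fold), and Actr3b was not listed. Arpc1a and Arpc1b are neighbours on chromosome 5, on the same strand with 5454 bases between them. Of the Arpc1b exon bases, 18.2% are overlapped by Pdap1 on the other strand (46.2 CPM), and 44.5% of the 50-base words of Actr3 occur in other genes, mostly Gm8822 at 5.46 CPM. Arpc4 shares 12.2% of its exon bases with Ttll3 on the same strand (11.1 CPM), so its level is uncertain to that extent.

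**Figure D2:**
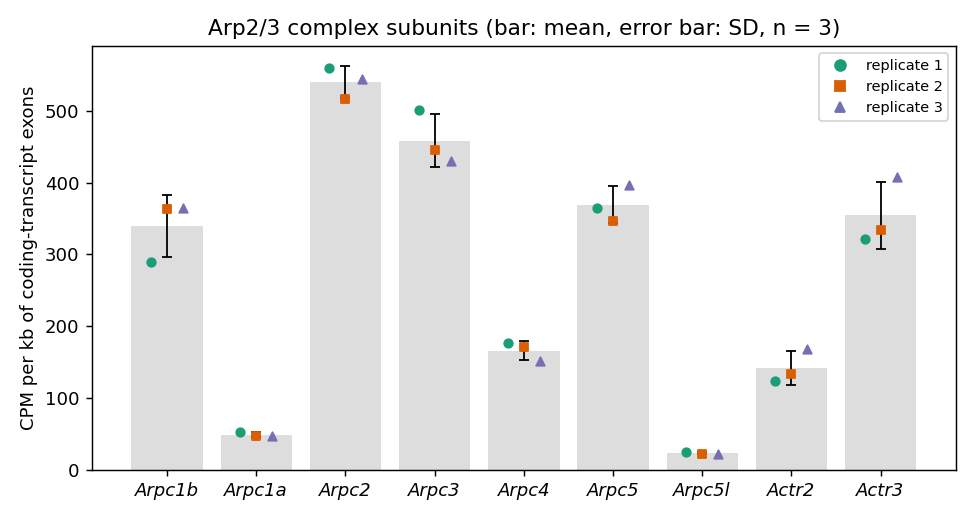
CPM per kb of coding-transcript exons for the 9 listed Arp2/3 genes, with points for replicates 1, 2 and 3, bars for the mean and error bars for the SD (n = 3). Arpc2 is highest in each library, and the alternative forms Arpc1a and Arpc5l stand at 48.5 ± 3.49 and 22.9 ± 1.52 CPM per kb, below their relatives Arpc1b and Arpc5.

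The 5 genes that start filaments were all above 10 CPM. Per kb the highest of them were Was at 128 ± 13.3 and Diaph1 at 75.8 ± 14.4 CPM per kb, against 141 ± 23.8 for Actr2, the lowest mean of the 7 subunits. Was encodes WASP, the blood cell activator of the Arp2/3 complex whose loss causes Wiskott-Aldrich syndrome in humans, and had 238, 282 and 290.0 CPM in replicates 1, 2 and 3. Its stabilising partner Wipf1 had 125, 177 and 184 CPM, with replicate 1 below the others. The formin gene Diaph1 had 371, 416 and 533 CPM, against 53.01, 47.3 and 49.4 CPM for Diaph2 and 18.1, 15.1 and 16.3 CPM for Diaph3. Diaph1 exceeded Diaph2 by 3.46 ± 0.30 and Diaph3 by 4.19 ± 0.32 on the log2 scale per kb (11.01-fold and 18.3-fold).

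Coronins, which bind filaments and help to turn over branches, were led by Coro1a, the leukocyte form. Coro1a had 3432, 2924 and 2561 CPM in replicates 1, 2 and 3, a log2 difference of 8.07 from 10 CPM (adjusted p = 1.33e-24 in limma, SE 0.11). Coro7, a coronin linked to Golgi traffic, had 283, 269.8 and 295 CPM, Coro1b had 277, 247 and 249 CPM, and Coro1c had 105, 131 and 141 CPM. Coro2a had 20.97, 30.7 and 29.7 CPM. Coro1a exceeded each of them in 3 of 3 libraries, by a log2 ratio per kb of 3.36 ± 0.14 over Coro1b, 4.46 ± 0.24 over Coro7, 5.40 ± 0.42 over Coro1c and 7.66 ± 0.45 over Coro2a. Not divided by length, the last 3 were 3.38, 4.55 and 6.73. Coro1b shares 13.5% of its exon bases with Ptprcap on the same strand, at 12.7 CPM, and 19.9% of its 50-base words occur there. The Coro1b level and the ratio of Coro1a over Coro1b are uncertain to that extent. Coro2b had 0, 18 and 15 reads in replicates 1, 2 and 3, where 0 reads allow up to 0.583 CPM in replicate 1, and it was below 10 CPM, at a log2 difference of -3.12 from 10 CPM (adjusted p = 6.42e-08 in limma, SE 0.37). Coro6 was not listed.

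Capping protein is a pair of an alpha and a beta chain, and the beta chain was higher, at 293 ± 14.1 CPM per kb for Capzb, 58.7 ± 6.45 for Capza2 and 38.9 ± 6.40 for Capza1 (SD, n = 3). Capzb had 729, 665 and 715 CPM, Capza2 had 152, 133 and 166 CPM, and Capza1 had 105, 121 and 146 CPM in replicates 1, 2 and 3. The gap between the alpha genes was the smallest of all pairs compared, a log2 ratio per kb of 0.59 ± 0.21 for Capza2 over Capza1 (1.51-fold). Their coding sequences are 76.9% identical, and 76.3% of the 50-base words of Capza1 occurred in other genes, mostly Gm3608, listed at 2.38 CPM. The Capza1 level, and the sign of a difference this small, are therefore uncertain. Capza3 was not listed.

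Cross-linking proteins held 0.771, 0.896 and 1.05% of assigned reads in replicates 1, 2 and 3, and all 6 genes were above 10 CPM. Flna (filamin A, which joins filaments into a loose network) had 3813, 4191 and 4808 CPM in replicates 1, 2 and 3. Lcp1 encodes L-plastin, the bundling protein of leukocytes, and had 2806, 3289.9 and 3992 CPM. The alpha actinins Actn1 and Actn4 had 673, 953 and 1127 CPM and 367, 441 and 489.5 CPM. For all 4 of Flna, Lcp1, Actn1 and Actn4, replicate 1 was lowest and replicate 3 highest. Per kb, Actn1 exceeded Actn4 by 1.21 ± 0.17 on the log2 scale (2.31-fold). Tlnrd1, the talin rod domain containing gene, had 38.8, 68.8 and 65.2 CPM. Actn2, Actn3 and Flnc, best known from striated muscle, were not listed.

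The adhesion genes were above 10 CPM as well. Tln1 encodes talin 1, which links integrins to actin and switches them on, and had 1517, 1969 and 2183 CPM in replicates 1, 2 and 3. Vcl, which encodes its partner vinculin, had 401, 529 and 509 CPM. Vcl shares 25.5% of its exon bases with Ap3m1 on the other strand, at 50.9 CPM, so part of its reads may not be told apart. Tln2 was not listed. Of the linkers between filaments and the plasma membrane, Msn (moesin) had 905, 961 and 1133 CPM and Ezr (ezrin) had 291, 339.7 and 420.1 CPM, a log2 ratio per kb of 1.24 ± 0.10 for Msn over Ezr (2.35-fold).

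Heavy chain RNA of myosin II was nearly all that of the A form. Myh9, the heavy chain of non-muscle myosin IIA (ENSMUSG00000022443, chromosome 15, 77760587 to 77842175, minus strand), had 2299, 3572 and 4022 CPM in replicates 1, 2 and 3, a log2 difference of 8.19 from 10 CPM (adjusted p = 1.10e-23 in limma, SE 0.13). Replicate 1 stood below the others. Myh10, the heavy chain of myosin IIB, had 4, 24 and 0 reads, where 0 reads allow up to 0.0798 CPM in replicate 3. It was below 10 CPM, at a log2 difference of -2.96 from 10 CPM (adjusted p = 1.22e-07 in limma, SE 0.36). Per kb the log2 ratio of Myh9 over Myh10 was 8.68 ± 0.48 with a pseudocount of 1 and 11.52 with a pseudocount of 0.1, so with this few Myh10 reads its size is set by the pseudocount. The other 12 Myh genes looked for, including Myh11 and Myh14, were not listed.

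Of the 6 light chain genes 3 were above 10 CPM and 3 below. Myl12b and Myl12a, the regulatory light chains of non-muscle myosin II, had 817, 788 and 746 CPM and 385, 404 and 384 CPM, and the essential light chain Myl6 had 841, 793 and 571 CPM in replicates 1, 2 and 3. These were the 3 above 10 CPM, and Myl6b, Mylpf and Myl2 were below. Myl2, a regulatory light chain of heart and slow muscle, had 7.57, 4.38 and 5.88 CPM, a log2 difference of -0.69 from 10 CPM (adjusted p = 0.0144 in limma, SE 0.25), and without replicate 2 it was no longer below 10 CPM (limma adjusted p = 0.174). Mylpf of fast skeletal muscle had 3.69, 2.17 and 1.36 CPM and Myl6b had 4.85, 2.12 and 1.70 CPM. For all 3 low genes replicate 1 was highest, with 39, 25 and 19 reads of Myl2, Myl6b and Mylpf there. Tnnt3 and Tnni2, the only listed genes of the striated muscle list, summed to 3.11, 2.04 and 1.97 CPM in replicates 1, 2 and 3. Replicate 1 was highest here too, on 7 reads of Tnnt3 and 9 of Tnni2. The longest coding transcripts of Myl2, Myl6b and Mylpf have 889, 1026 and 766 bases. As described below, genes under 2000 bases that averaged 10 CPM or more tended to stand higher in replicate 1. Whether muscle RNA or length had a part in the levels of Myl2 and Mylpf was not tested. Mylk, which encodes the myosin light chain kinase of smooth muscle and non-muscle cells, had 1.55, 2.57 and 2.82 CPM, a log2 difference of -1.75 from 10 CPM (adjusted p = 1.21e-05 in limma, SE 0.30).

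Myl6 exceeded Myl6b by 6.90 ± 0.42 on the log2 scale per kb, or by 7.63 when not divided by length, and these genes lie 12 bases apart on one strand of chromosome 10. Myl12b exceeded Myl12a by 1.34 ± 0.07 (2.53-fold), by 0.853 with the longest transcript as the length and by 1.00 when not divided by length. They are neighbours on chromosome 17, on the same strand with 2766 bases between them. Their coding sequences were 519 bases long and differed at 18 positions (96.5% identity), the closest pair aligned. The first 60 coding bases show how little separates them, with the 4 differing positions in capitals.
Myl12b: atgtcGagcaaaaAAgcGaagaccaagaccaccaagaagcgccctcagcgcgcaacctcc
Myl12a: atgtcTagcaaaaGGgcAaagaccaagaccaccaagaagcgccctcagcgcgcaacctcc
Of the 50-base words of Myl12b and Myl12a, 30.6% and 24.5% occurred in another annotated gene, mostly in a second gene entry that also carries the name Myl12b and was not listed. That entry overlaps 26.7% of the Myl12b and 13.75% of the Myl12a exon bases on the same strand. Both levels and their ratio are uncertain to that extent.

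Of the tropomyosins, which coat filaments and govern what else can bind them, Tpm3 and Tpm4 were above 10 CPM. Tpm3 had 507, 478 and 578 CPM in replicates 1, 2 and 3 and Tpm4 had 94.95, 99.8 and 139 CPM. Tpm3 exceeded Tpm4 by 1.47 ± 0.18 on the log2 scale per kb (2.76-fold), and by 2.15 with the longest transcript as the length. Tpm1 had 5.44, 9.29 and 7.53 CPM and was called neither way, at a log2 difference of -0.41 from 10 CPM (adjusted p = 0.111 in limma, SE 0.24). Tpm3-rs7, an entry related to Tpm3, had 2.72, 2.79 and 1.86 CPM, and 69.4% of its 50-base words occurred in Tpm3. Of the 3640 such words of Tpm3, 1457 occurred in Tpm3-rs7, so the levels of both and the ratio of Tpm3 over Tpm4 are uncertain to that extent. Tpm2 was not listed.

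The 7 genes that work outside the actin cytoskeleton were lower, with a median of 48.2 CPM, and held 0.0371 ± 0.00210% of assigned reads. The dynactin genes Actr1a, Actr10 and Actr1b stood at 134 ± 6.52, 53.9 ± 1.78 and 48.2 ± 3.56 CPM (SD, n = 3). Actr8 and Actr5 of the INO80 chromatin remodeller stood at 28.2 ± 2.71 and 18.9 ± 2.85 CPM. Actr6, with 10.3, 10.4 and 7.92 CPM in replicates 1, 2 and 3, was called neither way. Cflar, which restrains caspase-8, had 64.5, 77.6 and 92.5 CPM.

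Across related genes, 29 pairs were set up and 21 had both genes listed. In all 21 the gene named first was higher per kb in each of the 3 libraries, with log2 ratios between 0.59 ± 0.21 and 8.68 ± 0.48 (SD, n = 3). The pairs were set up with earlier results of these data known, so their shared direction is not a result. In the exact permutation test by sign flips each pair gave p = 0.25, below which 3 libraries cannot go, and 0.25 after adjustment over the 21 pairs, so no pair could pass a threshold of 0.05. The labels do not say whether the libraries came from separate mice, so all p-values here rest on a spread between libraries that may be technical alone.

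**Figure D3:**
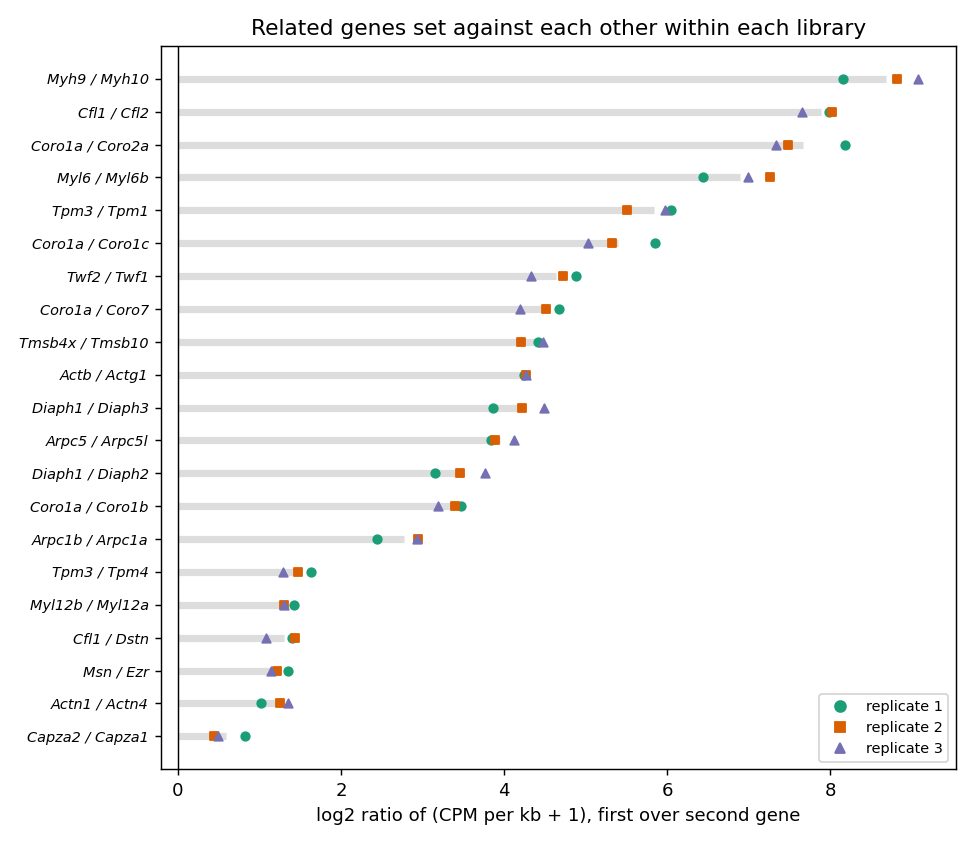
Log2 ratio of (CPM per kb + 1) of the first over the second gene of 21 related pairs in replicates 1, 2 and 3, with a grey bar up to the mean. All points lie right of 0, from Capza2 over Capza1 at 0.59 ± 0.21 to Myh9 over Myh10 at 8.68 ± 0.48. The pairs were set up with earlier results of these data known.

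Differences between libraries were under 1.5-fold for most genes that averaged 10 CPM or more. For the 55 genes that averaged 10 CPM or more, the highest of the 3 libraries exceeded the lowest by a median factor of 1.23. Over all 7283 listed genes of that level it was 1.35. Above 100 CPM the medians were 1.24 for 42 of the 65 genes and 1.26 for 1693 listed genes, a smaller gap than among all genes from 10 CPM. Factors above 1.5 were found for 3 of the 55 genes (5.45%), against 31.3% of listed genes. From 100 CPM the shares were 4.76% and 15.5%. The 3 were Tlnrd1 at 1.77, Myh9 at 1.75 and Actn1 at 1.67, followed by Wipf1 at 1.48 and Myl6 at 1.47. For Tlnrd1, Myh9, Actn1 and Wipf1 replicate 1 was lowest, and for Myl6 replicate 3. Of the genes under 10 CPM, Myl6b differed between libraries by a factor of 2.85, Mylpf by 2.72, Mylk by 1.81, Myl2 by 1.73 and Tpm1 by 1.71, and Myh10 and Coro2b, each listed at 0 in a library, gave no factor.

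The direction of these differences went with transcript length. The log2 of a gene's level over its 3-library mean was set against the length of its longest coding transcript across the 55 genes. The Spearman correlation was -0.67 in replicate 1, 0.076 in replicate 2 and 0.66 in replicate 3. Over all 7178 listed genes with a length that averaged 10 CPM or more it was -0.50, 0.067 and 0.47. The same tilt thus ran through the listed genes of that level. These are descriptions across genes, which share the 3 libraries and are not independent, and the deviations of the 3 libraries are tied to 1 mean. In replicate 1 the 17 genes under 2000 bases had a median deviation of 0.087, the 24 genes between 2000 and 4000 bases -0.14, and the 14 longer genes -0.25. In replicate 3 the medians were -0.052, 0.15 and 0.17. The cause of the tilt was not tested. Sums of some roles tilted likewise, but not of all. The actin genes, both under 2000 bases, held 1.97, 1.92 and 2.08% of reads in replicates 1, 2 and 3, highest in replicate 3. Capping genes held 0.0986, 0.0919 and 0.103% and severing genes 0.413, 0.378 and 0.386%, in neither case in the order of the replicates. Monomer-binding genes, most of them short, held 0.996, 0.941 and 0.876% of reads in replicates 1, 2 and 3, while the cross-linking genes, most of them long, ran the other way.

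**Figure D4:**
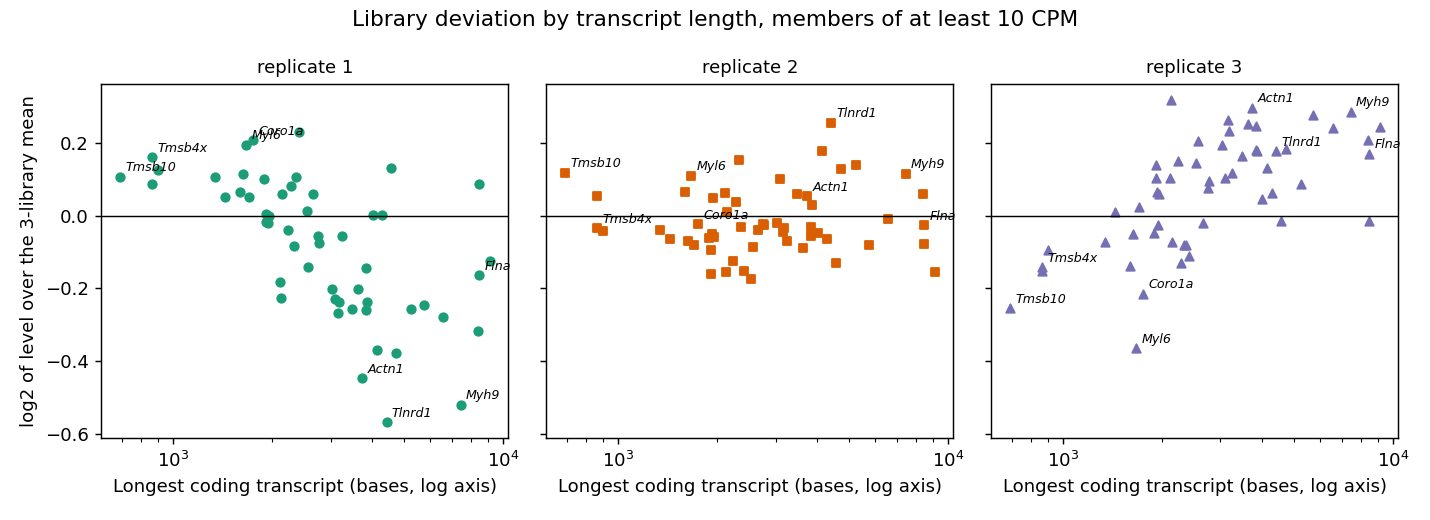
Log2 of each gene's level over its 3-library mean against the length of its longest coding transcript in bases (log axis), for the 55 genes that averaged 10 CPM or more, in replicates 1, 2 and 3. Long genes such as Myh9 and Flna lie below 0 in replicate 1 and above 0 in replicate 3, and the short Tmsb4x and Tmsb10 lie the other way.

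The upstream 250 bases of 56 of the 65 genes were found among RefSeq promoters of GRCm38.p6, as 69 windows. Actb, the highest of the 65, had no window there, nor did Diaph1, Twf2 and Coro1b among others, so their promoters were not searched. CArG boxes, the sites of serum response factor, which drives many actin genes, were searched by that name on both strands. They were in 4 of the 69 windows (5.80%), those of Arpc4, Myl6, Actg1 and Vcl, against 1.11% of the 11305 windows of all listed genes with a promoter. This is a match of letters, not a site shown to be used. The matched stretches are shown with the CArG box in capitals, since these are the sequences the count rests on. The stretch of Myl6 lies inside its gene as annotated by GENCODE (chromosome 10, 128490860 to 128494145, minus strand), not upstream of the whole gene.
Arpc4 (chr6:113377863-113377902, plus strand): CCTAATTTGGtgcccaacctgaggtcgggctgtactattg
Myl6 (chr10:128493020-128493089, minus strand): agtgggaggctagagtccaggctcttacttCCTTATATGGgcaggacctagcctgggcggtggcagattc
Actg1 (chr11:120348546-120348615, minus strand): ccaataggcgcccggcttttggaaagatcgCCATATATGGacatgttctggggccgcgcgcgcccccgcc
Vcl (chr14:20929148-20929210, plus strand): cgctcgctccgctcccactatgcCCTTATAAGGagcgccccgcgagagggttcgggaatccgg
Their levels in CPM ran from 385 ± 29.3 for Arpc4 to 1044 ± 42.7 for Actg1 (SD, n = 3). The motif GGGCGG, searched on both strands, was in 59.4% of the windows of the 65 genes and 57.0% of those of all listed genes, and median GC was 60.8% and 59.6%. TATAAA, searched likewise, was in 4.35% and 6.28% of these windows, and GAGGAA in 20.3% and 23.2%. Over the windows of all genes, listed or not, CArG boxes were in 1.47%.

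Other regulators of actin were counted in 11 lists, with 105 of 138 genes listed. Of these 105, 76 were above 10 CPM, 21 were below, 7 were called neither way and 1 had too few reads to test, and their median was 79.6 CPM. That is 72.4% above and 20% below, against 58.8% and 28.3% of all genes tested. The lists of formins (54.5% above), cofilin regulators (6 of 10), unconventional myosins (61.5%), bundling proteins and capping and severing proteins (63.6% each) lay near the share of all genes. The WAVE complex, which turns on Arp2/3 at the leading edge below Rac, had 6 of 8 genes above and 1 below. Cyfip2 stood at 1008 ± 221 CPM and the blood cell subunit Nckap1l at 456 ± 71.05, against 0.754 ± 0.527 for Abi2 (SD, n = 3). The other WASP, WIP and cortactin genes had 6 of 7 above and 1 below. Hcls1, the blood cell relative of cortactin, stood at 801 ± 48.3 CPM and Cttn, cortactin itself, at 0.822 ± 1.00. The list of other formins and Ena/VASP proteins had 6 of 11 above, 3 below and 1 too low to test, with Vasp at 1418 ± 77.98 and Fmnl1 at 766 ± 96.7 CPM as the highest and Spire1 at 1.15 ± 0.581 among the low ones.

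Regulators of cofilin had 6 of 10 above and 2 below. Wdr1, which helps cofilin take filaments apart, stood at 849 ± 10.2 CPM, and the kinase Limk1 at 6.47 ± 1.40 (SD, n = 3), whose call below 10 CPM was lost in edgeR, in DESeq2 and without replicate 1 or replicate 2 (adjusted p = 0.0583, 0.0638, 0.143 and 0.0955). Other capping and severing proteins had 7 of 11 above and 4 below, led by Capg, a gelsolin relative, at 452 ± 54.2 CPM. Other bundling proteins had 7 of 11 above and 4 below, with Cnn2 (calponin 2) at 1583 ± 56.1 and Lsp1 at 1299 ± 48.7 CPM and the bundler Fscn1 at 0.895 ± 0.430. Myosin regulators had 9 of 10 above and 1 below, with the phosphatase genes Ppp1cb and Ppp1r12a at 293 ± 53.2 and 248 ± 29.5 CPM and the kinase Rock1 at 102 ± 19.9. Of unconventional myosins 8 of 13 were above and 3 below. Myo1f stood at 1036 ± 62.4 CPM and Myo1e at 1.81 ± 1.30.

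Integrin adaptors had 8 of 10 above and 2 below. Zyx (zyxin) stood at 1124 ± 71.7 CPM, Pxn (paxillin) at 735 ± 103 and Fermt3, the kindlin of blood cells, at 571 ± 48.9, against 0.652 ± 0.440 for focal adhesion kinase Ptk2 (SD, n = 3). All 9 membrane partners and regulators of ezrin and moesin were above, with the surface glycoproteins Selplg at 589 ± 79.9, Cd44 at 586 ± 89.6 and Spn at 361 ± 11.9 CPM. In the serum response factor list 4 of 5 were above and the remaining gene was called neither way. Mkl1, the coactivator that actin monomers hold back, stood at 354 ± 62.7 CPM and Srf at 80.9 ± 6.68.

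**Figure D5:**
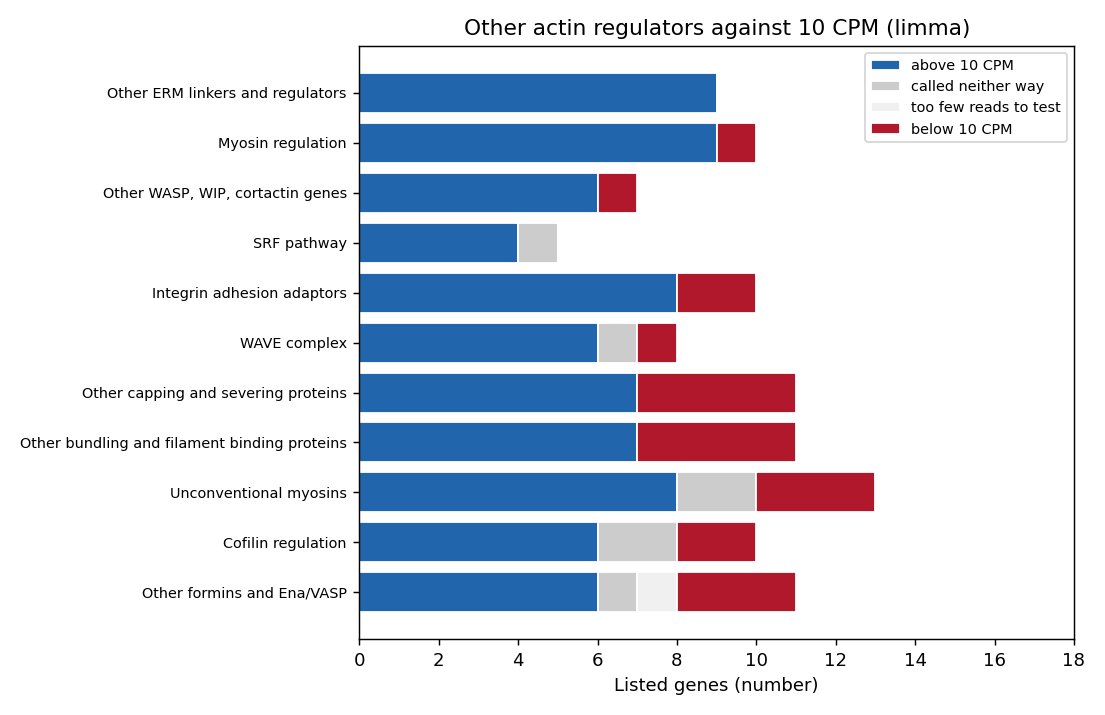
Number of listed genes above 10 CPM, called neither way, too low to test and below 10 CPM (limma) in the 11 lists of other actin regulators. The list of membrane partners and regulators of ezrin and moesin has all 9 genes above, and the formin and Ena/VASP list has 6 of 11.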

How the data were processed

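The deposited values are CPM per gene and library, made by the authors; per the submitters' processing notes FastQC, STAR, featureCounts and edgeR were used, with the builds mm10 and GRCh38. The sources used here do not give versions, annotation, strand setting or gene filter. Each file held 11463 entries; 44 identical repeats were dropped, leaving 11419 genes. All values (100%) were whole multiples of 1 read within 0.01 reads, which gave the library totals. Limits from 0 reads (3 reads: 0.583, 0.0747 and 0.0798 CPM) cover counting error only. The libraries differed by more than counting error (common biological coefficient of variation 0.326, edgeR 4.0.16).

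An intercept was fitted to log2(CPM + 1) with limma 3.58.1 (R 4.3.3, empirical Bayes with trend) and tested two-sided against 10 CPM, with Benjamini-Hochberg adjustment over the 11123 genes with at least 10 reads. edgeR and DESeq2 1.42.0 on the recovered reads were alternatives. All 3 tests were run on simulated data with a smaller spread than the 0.326 of these data, so their error rate here is not known from it. Pair ratios used log2(CPM per kb + 1). GENCODE (GRCm38, equal to mm10) gave coordinates, lengths and coding sequences, and RefSeq the promoters. Mkl1 is the name in the files of the gene listed as Mrtfa.

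The members, lists, pairs and tests were chosen with earlier results of these data known; the role of Tlnrd1 was set after its row was seen. Named were members of at least 500 CPM, both genes of each pair, fixed regulators, the 5 members of largest spread, and, of each pathway list, up to 4 high and 2 low genes; others were chosen after their values were seen. Of the 65 members, 1 is not reported by name or in pairs, though the counts include it, and 2 further lists of actin regulators are not reported here.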

Additional observations from a re-analysis of the deposited data

How the results depend on the processing

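Between 51 and 56 of the 65 genes were above 10 CPM and between 5 and 10 below, whether the pseudocount was 0.1 or 5, the fixed level 5 or 20 CPM, the filter dropped, TMM or DESeq2 factors applied, or edgeR or DESeq2 run on recovered reads (55 above and 7 below with each of these 2 tools). With 1 replicate left out, 55 were above and 5 to 7 below, the read share was 6.19 to 6.45%, the Arp2/3 range 3.74 to 4.23, the pathway genes above 73 to 76, and the spread between libraries 1.11 to 1.22, smaller since 2 libraries span less than 3. The read share per kb was 4.62%, and the Arp2/3 range 5.63 with the longest transcript and 3.27 undivided by length. All 21 pairs kept their sign, with 27 of 126 alternative ratios moved by more than 1 SD. Against 20 CPM the log2 level of Actr5 was -0.090, of Diaph3 -0.27 and of Elk1 -0.28; against 5 CPM that of Limk1 was 0.30 and of Myl2 0.19, by construction of the level. Without replicate 2, Myl2 was no longer below 10 CPM (limma adjusted p = 0.174) and Myh10, at 4 reads, was not tested. In edgeR, Cttn, Eps8, Carmil1 and Limk1 lost their calls (adjusted p = 0.0598, 0.0605, 0.0803 and 0.0583), and Limk1 also in DESeq2 (0.0638) and in limma without replicate 1 (0.143) or 2 (0.0955). In limma, Parvb was no longer called without replicate 2 (0.0613), nor Elk1 without replicate 3 (0.0539). No paired analysis was possible because there was only 1 group. Levels under about 1 CPM in replicate 1, the shallowest library, rest on 5 reads or fewer.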
